A study of Mus musculus with 12 samples.

Results

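This account covers 34 genes for transcription factors that set the identity and the hormonal responses of liver cells, in liver RNA-seq of fasted and sugar-fed mice. The genes were taken by name, 12 liver identity factors, both KLF factors linked to glucocorticoid signalling and 20 nuclear receptors, and all 34 were found among the 16346 genes of the deposited table of normalized counts. The rule is a list of names that uses no measured value, but the list was drawn up with earlier results of these data known. Nuclear receptors are transcription factors whose activity is set by small fat-soluble ligands such as steroids, thyroid hormone, retinoids, fatty acids and foreign chemicals, and many of them bind DNA as partners of a retinoid X receptor. HNF4A, the FOXA factors and the C/EBP factors are known to hold open and drive the genes that make a hepatocyte a hepatocyte. Several of these factors, among them C/EBPβ, the glucocorticoid receptor and its target KLF15, are known for their part in the switch of the liver between fasting and feeding.

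The 12 mice were C57BL6J at 12 weeks of age, and 2 of them made up each of 6 groups. Control mice carried Med13fl/fl, the Med13 gene flanked by loxP sites, and MED13-LKO mice carried it with a Cre recombinase driven by the *Alb* (albumin) promoter and so active mainly in hepatocytes. The controls carried no Cre, so that loss of MED13 and presence of Cre cannot be told apart. In each genotype, 1 group was fasted overnight for 16 h, 1 was refed for 4 h with normal chow and water holding 30% sucrose, and 1 was refed in the same way with 30% fructose. All mice had been trained to eat by day, and the fasted mice were killed earlier in the day than the fed mice, so that feeding and clock time cannot be told apart. Below, each pair of values is mouse 1 and mouse 2 of a group, and where only numbers are listed they stand in the order fasted, sucrose-fed and fructose-fed. The replicates are separate mice. The p-values set a difference against a spread between mice that is pooled over all 6 groups and moderated across genes.

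The normalized counts summed to between 21062200 and 24152900 in the control libraries and to between 17309200 and 18738600 in the libraries labelled MED13-LKO. These sums hold the authors' normalization and are not read totals. The targeted gene itself, *Med13*, had 578 to 796 normalized counts in control mice and 646 to 1055 where the label was MED13-LKO. Its log2 fold change was 0.22 (limma with Benjamini-Hochberg adjustment, adjusted p = 0.201), and the values per gene do not show whether single exons were lost. By Western blot of liver nuclear proteins, the paper reports that MED13 protein was almost absent in MED13-LKO mice. The hepatocyte markers *Alb*, *Apoa1*, *Ttr*, *Apob*, *Tat* and *Cps1* were high in all 12 libraries, with a summed level of 1808070 to 3082410 normalized counts. Fructose-fed control mice 1 and 2 stood farther apart than any other pair, with a median absolute log2 difference of 0.309 over the 34 genes, against 0.0723 to 0.196 in the other 5 groups. In bulk liver, fewer cells of a type and less RNA per cell cannot be told apart.

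Divided by the length of the longest annotated transcript, the levels of the 34 genes spanned a wide range. *Hnf4a*, the receptor that most broadly drives hepatocyte genes, was the highest with a mean of 3061 normalized counts per kilobase (2523 to 3681 over 12 libraries). *Cebpa*, which encodes C/EBPα, followed at 2776 per kilobase with a range of 1825 to 3724 that overlapped that of *Hnf4a*. *Nr1i3* (CAR, a sensor of foreign chemicals), *Cebpb* (C/EBPβ) and *Rxra* (the main retinoid X receptor of liver) came next at 1359, 1289 and 1061 per kilobase, with ranges that overlapped each other. At the low end, *Rarb* (retinoic acid receptor β) had 11.3 and *Nr4a1* (an early response receptor) 5.61 normalized counts per kilobase. *Nr4a1* was listed at 0 in 4 libraries, and its 12 values ran from 0 to 37.4 normalized counts. Some members share transcribed sequence with a neighbouring gene on the other strand, and whether the counting used strand is not given in the sources used here. Of all 31-base stretches in the transcripts of a gene, the share also present in any other gene was 68.1% for *Nr1i3* (overlapping *Tomm40l*), 47.5% for *Nr2f6* (*Ocel1*), 35.7% for *Rarb* (*Top2b*), 31% for *Nr2c2* (*Mrps25*), 19.6% for *Cebpb* (*Tmem189*), 14.2% for *Cebpd* (*Spidr*) and at most 8.12% for the other 28. The genes in brackets overlap the member on the other strand, and the share was not split by gene. Values of the 6 members with the larger shares are uncertain by an amount that was not measured.

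**Figure D1:**
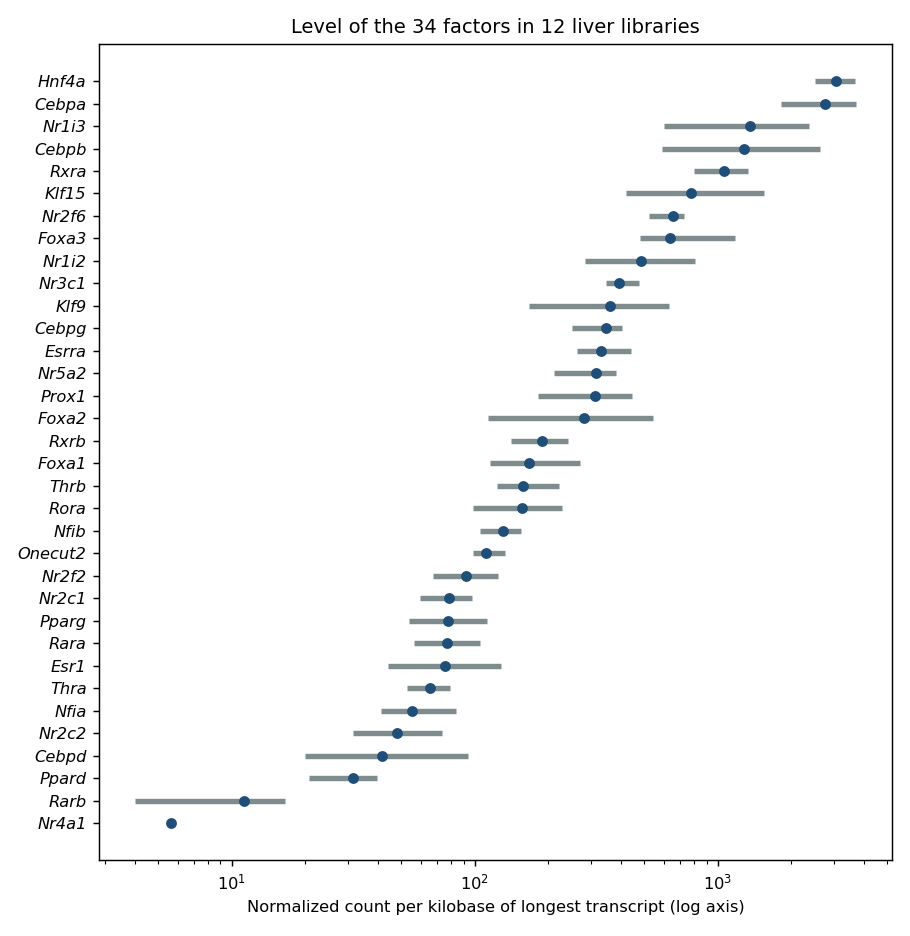
Normalized count per kilobase of the longest transcript, on a log axis, for the 34 genes in 12 liver libraries; points are means and bars run from the lowest to the highest library. *Hnf4a* is highest at 3061 and *Nr4a1* lowest at 5.61, with no bar for *Nr4a1* because its lowest value is 0.

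The first comparison asked which of these factors changed when fasted mice were fed either sugar. Pooled over the genotypes, feeding raised the FOXA genes, *Cebpa* and *Cebpg*, and lowered *Cebpb*, *Cebpd*, *Klf9*, *Klf15*, *Nr1i2* and several receptors. In MED13-LKO mice alone, *Foxa1*, *Foxa3* and *Cebpg* passed the test for neither sugar. With both genotypes and both sugars pooled, 18 of the 34 genes passed the test, against 21.8% of the 12366 genes tested. A gene is called here where the adjusted p is under 0.05 in limma on log2(normalized count + 1), with Benjamini-Hochberg adjustment over all genes tested. The 34 genes all had a mean of at least 10 normalized counts, the minimum for testing. Of the 18, 7 rose and 11 fell, while 10.7% of all genes were called higher and 11% lower. The median absolute log2 fold change was 0.33 over the 34 genes and 0.18 over all genes. The 4 fasted and the 8 fed libraries did not overlap for 11 of the 34 genes, against 8.8% of all genes tested.

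**Figure D2:**
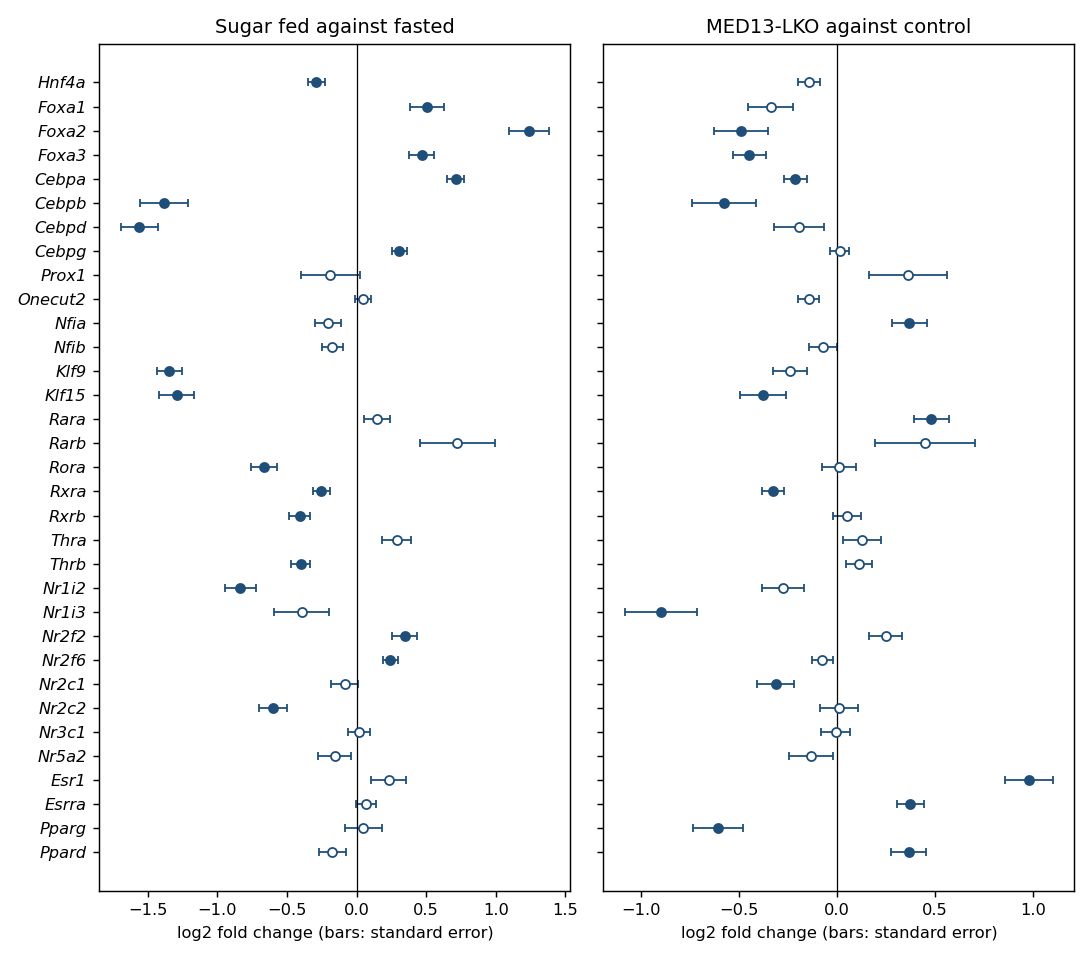
Log2 fold changes, with standard errors as bars, of 33 genes for sugar-fed against fasted mice (left) and for MED13-LKO against control mice (right); filled points had an adjusted p under 0.05. *Nr4a1* is left out because it was listed at 0 in 4 libraries. *Cebpd*, *Cebpb*, *Klf9* and *Klf15* lie farthest to the left for feeding and *Foxa2* farthest to the right, while for genotype *Esr1* lies farthest to the right and *Nr1i3* farthest to the left.

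The FOXA proteins are pioneer factors that open packed chromatin at liver enhancers. *Foxa2* had 324 and 241 normalized counts in the fasted control mice, 1124 and 853 with sucrose, and 1153 and 687 with fructose. Where the label was MED13-LKO, the fasted pair had 314 and 317, the sucrose-fed pair 777 and 643 and the fructose-fed pair 412 and 376. The 8 fed mice were all above the 4 fasted mice, and the fructose-fed MED13-LKO mice were the lowest of the fed. Pooled, *Foxa2* rose by a log2 fold change of 1.24 (standard error 0.14, limma adjusted p = 0.000397), which is the largest rise among the 34. In control mice *Foxa3* had 1026 and 1027 in the fasted, 1374 and 1574 in the sucrose-fed and 2401 and 1708 in the fructose-fed pair, and it had 978 and 973, 1264 and 1069, and 1084 and 1041 in MED13-LKO mice in the same order. Its lowest fed mouse, at 1041, was just above its highest fasted mouse, at 1027, and the pooled rise was 0.47 (standard error 0.09, limma adjusted p = 0.00533). *Foxa1* had 372 and 395, 759 and 679, and 862 and 563 in fasted, sucrose-fed and fructose-fed control mice, and 368 and 500.3, 560.5 and 511, and 380.1 and 449 in the MED13-LKO mice. The fed control mice all lay above the fasted control mice, while fed and fasted MED13-LKO mice overlapped. The pooled rise of *Foxa1*, 0.51 (standard error 0.12, limma adjusted p = 0.0168), was no longer called without fasted control mouse 1, fasted control mouse 2 or fasted MED13-LKO mouse 1, where the highest adjusted p was 0.0764.

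*Hnf4a* fell by a small amount. It had 16057 and 15339.9, 11923 and 13018, and 12606 and 15086 normalized counts in the fasted, sucrose-fed and fructose-fed control mice and 14335 and 14893, 11004 and 11650, and 12619 and 11718 in the MED13-LKO mice. Fructose-fed control mouse 2 overlapped the fasted mice, and the other fed mice were lower. The pooled log2 fold change was -0.29 (standard error 0.059, limma adjusted p = 0.00751), or 1.22-fold lower.

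The C/EBP family moved in opposite directions. C/EBPα, known to drive metabolic genes of the mature hepatocyte, is encoded by *Cebpa*, which had 5397 and 4792 normalized counts in fasted control mice, 9639 and 9779.9 with sucrose, and 8126 and 9694 with fructose. The MED13-LKO mice had 4894 and 5248, 8211 and 7378, and 7323 and 6982. Each fed mouse was above every fasted mouse, and the rise of 0.71 (standard error 0.062, limma adjusted p = 6.95e-05) was called for each sugar in each genotype. *Cebpb* encodes C/EBPβ, which is induced by glucagon and glucocorticoids and drives gluconeogenic genes. It had 2819.9 and 3950.2 in fasted control mice, 1515 and 1469 with sucrose, and 1194 and 2490.1 with fructose, and 2659 and 3459, 971 and 885, and 929.9 and 918 in MED13-LKO mice. Every fed mouse was below every fasted one, with fructose-fed control mouse 2 the closest, and the fall was -1.38 on the log2 scale (standard error 0.17, limma adjusted p = 0.000569). *Tmem189*, with which *Cebpb* shares sequence, had a log2 fold change of -0.10 (limma adjusted p = 0.487).

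*Cebpd* encodes C/EBPδ, induced by glucocorticoids and inflammation. Its values were 221 and 353 in fasted control mice, 96.0 and 100 with sucrose, and 102 and 114 with fructose, and 257 and 291, 83.9 and 107, and 75.8 and 75.1 in MED13-LKO mice. The groups of fasted and fed mice did not overlap, and the log2 fold change of -1.56 (standard error 0.13, limma adjusted p = 6.73e-05) was the largest fall of the 34. *Cebpg*, for C/EBPγ, which pairs with the other C/EBP proteins, had 1235 and 1186, 1831 and 1894, and 1886 and 1809 in control mice, and 1511 and 1749.8, 1683 and 1572, and 1585 and 1654 in MED13-LKO mice. In control mice the fed animals were all higher than the fasted ones, while in MED13-LKO mice fasted and fed animals overlapped. The pooled rise was 0.31 (standard error 0.053, limma adjusted p = 0.00318).

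*Klf9* and *Klf15* encode zinc finger factors, and both are known targets of the glucocorticoid receptor. KLF15 is further known to drive amino acid breakdown for gluconeogenesis in fasted liver. *Klf9* had 2419 and 2751 normalized counts in fasted control mice, 1058 and 1231 with sucrose, and 1249.9 and 1420.3 with fructose, against 2818 and 2842, 1163 and 882, and 914 and 753 in MED13-LKO mice. *Klf15* had 3345 and 3847, 1239 and 1518, and 1194 and 2025 in control mice, and 2687 and 2810.5, 1041 and 1076, and 1288 and 1124 in MED13-LKO mice. For both genes all 8 fed mice were below all 4 fasted mice. *Klf9* fell by 1.34 on the log2 scale (standard error 0.091, limma adjusted p = 3.24e-05) and *Klf15* by 1.29 (standard error 0.13, limma adjusted p = 0.000132), and both were called for each sugar in each genotype.

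**Figure D3:**
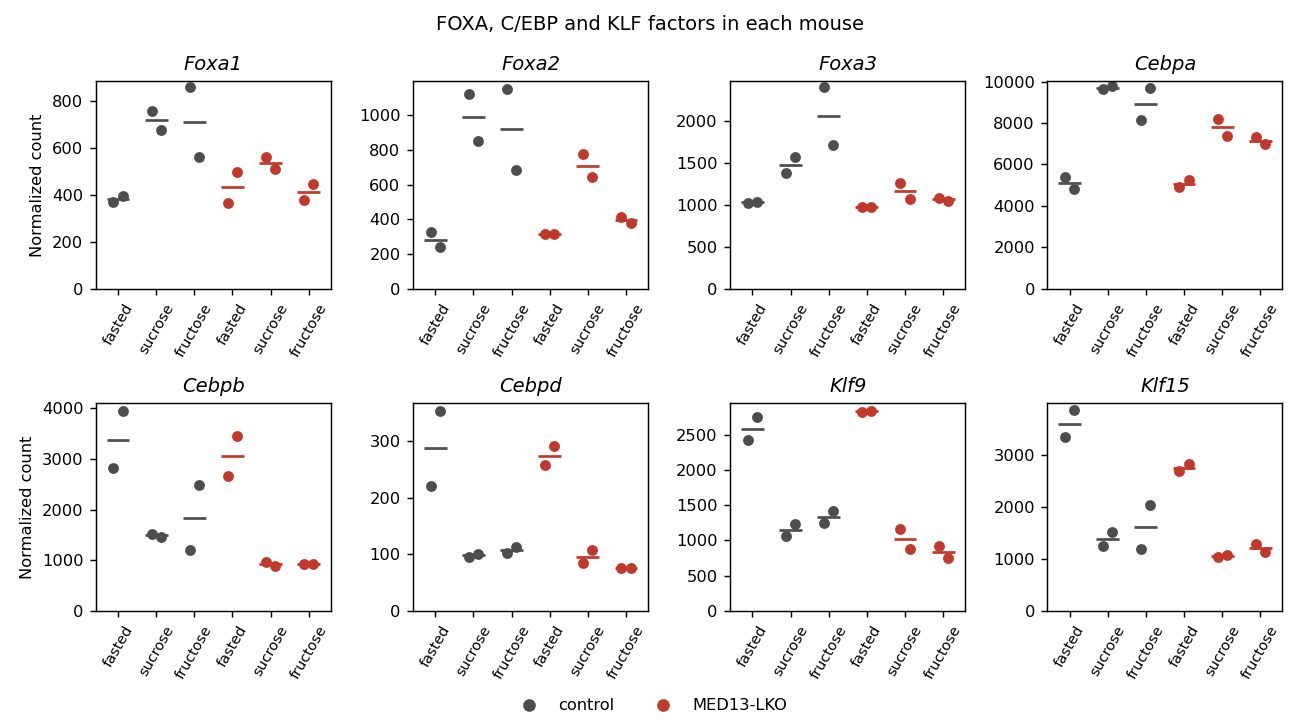
Normalized counts in each of 12 mice (points, with group means as lines) for *Foxa1*, *Foxa2*, *Foxa3*, *Cebpa*, *Cebpb*, *Cebpd*, *Klf9* and *Klf15*, control mice in grey and MED13-LKO mice in red, each axis starting at 0. *Cebpb*, *Cebpd*, *Klf9* and *Klf15* are lower in all fed mice of both genotypes, and *Foxa3* is highest in the fructose-fed control mice at 2401 and 1708.

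Since *Klf9*, *Klf15* and *Cebpb* fell together while *Foxa1*, *Foxa2* and *Cebpa* rose together, the 250 bases before the most upstream RefSeq start of each (GRCm38.p6) are shown for 5 of them. The window of *Foxa1* is not printed, and its only match is to a forkhead site. Capitals mark matches on either strand to TGACG (the core of the cAMP response element), CACGTG (an E-box), TGTTTAC (a forkhead site), TTGCGCAA (a C/EBP site) and AGGTCA (a nuclear receptor core site), and no 2 matches in these windows overlap.
Klf9 (chr19:23140976-23141225, plus strand): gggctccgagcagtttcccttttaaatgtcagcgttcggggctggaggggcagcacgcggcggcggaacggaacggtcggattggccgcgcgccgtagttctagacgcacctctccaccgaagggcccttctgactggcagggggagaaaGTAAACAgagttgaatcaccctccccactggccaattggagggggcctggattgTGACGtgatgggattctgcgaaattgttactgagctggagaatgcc
Klf15 (chr6:90462326-90462575, plus strand): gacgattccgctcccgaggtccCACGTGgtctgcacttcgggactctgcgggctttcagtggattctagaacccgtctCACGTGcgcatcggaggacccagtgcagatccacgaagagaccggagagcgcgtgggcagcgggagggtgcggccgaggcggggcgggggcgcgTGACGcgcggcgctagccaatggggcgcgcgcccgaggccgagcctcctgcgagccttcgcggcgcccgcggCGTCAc
Cebpb (chr2:167688665-167688914, plus strand): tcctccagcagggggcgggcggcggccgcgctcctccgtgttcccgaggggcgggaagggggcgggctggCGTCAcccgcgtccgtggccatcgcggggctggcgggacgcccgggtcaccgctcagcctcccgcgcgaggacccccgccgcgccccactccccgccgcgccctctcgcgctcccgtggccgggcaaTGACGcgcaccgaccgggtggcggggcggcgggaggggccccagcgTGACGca
Foxa2 (chr2:148046970-148047219, minus strand): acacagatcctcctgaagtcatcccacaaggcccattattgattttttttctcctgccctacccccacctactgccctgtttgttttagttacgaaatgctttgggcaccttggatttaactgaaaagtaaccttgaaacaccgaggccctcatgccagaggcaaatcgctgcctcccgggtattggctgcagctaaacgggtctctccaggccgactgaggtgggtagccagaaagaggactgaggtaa
Cebpa (chr7:35119043-35119292, plus strand): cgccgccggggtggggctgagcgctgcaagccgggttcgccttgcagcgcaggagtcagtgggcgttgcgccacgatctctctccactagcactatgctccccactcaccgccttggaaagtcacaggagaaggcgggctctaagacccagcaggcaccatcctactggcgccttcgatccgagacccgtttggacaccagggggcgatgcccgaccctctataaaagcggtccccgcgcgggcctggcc
The window of *Klf9* lies on chromosome 19, those of *Klf15* and *Cebpa* on chromosomes 6 and 7, and those of *Cebpb* and *Foxa2* on chromosome 2. RefSeq windows were found for 29 of the 34 genes, 10 of the 11 that fell and all 7 that rose. TGACG was present in 8 of the 29 and in 17.8% of all 27025 windows of this length. It was in 6 of the 10 that fell (*Cebpb*, *Klf15*, *Klf9*, *Nr2c2*, *Rxrb* and *Thrb*) and in 0 of the 7 that rose. *Nr2c1* and *Nr4a1*, which were not called for feeding, also held it, and the split between genes that fell and rose was not tested. CACGTG was found in *Klf15* and *Nr1i3* (6.04% of all windows), TGTTTAC in *Klf9* and *Foxa1* (3.06%), AGGTCA in *Nr5a2*, *Pparg* and *Thrb* (13.8%), and TTGCGCAA in none of the 29 (0.17%). These are matches of letters and do not show that a factor binds there.

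Among the nuclear receptors other than *Hnf4a*, *Nr1i2*, *Rora*, *Rxra*, *Rxrb*, *Thrb* and *Nr2c2* fell with feeding and *Nr2f2* and *Nr2f6* rose. The others, *Nr1i3*, *Thra*, *Rara*, *Rarb*, *Nr2c1*, *Nr3c1*, *Nr4a1*, *Nr5a2*, *Esr1*, *Esrra*, *Pparg* and *Ppard*, were not called. *Nr1i2* encodes PXR, which senses drugs and bile acids. It had 1696 and 2056 normalized counts in fasted control mice, 1027 and 1213 with sucrose, and 878 and 1210.5 with fructose, and 1716 and 1482, 850.1 and 1090.2, and 858 and 726 in MED13-LKO mice. All fed mice were below all fasted mice, a fall of 0.84 on the log2 scale (standard error 0.11, limma adjusted p = 0.000848) that was called for both sugars in both genotypes. *Rora*, for the orphan receptor RORα that activates clock and lipid genes, had 1976 and 2309, 1583 and 1629, and 1075 and 1576 in control mice and 2484 and 2241, 1454 and 1423, and 1336 and 1352 in MED13-LKO mice. Its fed and fasted mice did not overlap either, and it fell by 0.66 (standard error 0.093, limma adjusted p = 0.00107).

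The retinoid X receptors *Rxra* and *Rxrb* are the common partners of the other receptors. *Rxrb* had 578 and 533 in fasted control mice, 418 and 422 with sucrose, and 467 and 490.1 with fructose, and 625 and 636, 485 and 372, and 471 and 452 in MED13-LKO mice, with no overlap between fasted and fed mice. It fell by 0.41 on the log2 scale (standard error 0.075, limma adjusted p = 0.00429). *Rxra* had 5959.7 and 6548, 4994 and 5317, and 5918 and 5957 in control mice and 5359 and 5323, 4666 and 3987, and 4483 and 3935 in MED13-LKO mice. Its fasted and fed mice overlapped across genotypes, and its fall of 0.25 (standard error 0.059, limma adjusted p = 0.0143) was not called without fasted control mouse 2 or fasted MED13-LKO mouse 1, where the highest adjusted p was 0.0737.

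*Thrb* encodes the main thyroid hormone receptor of liver. It had 951 and 1009 in fasted control mice, 864 and 876 with sucrose, and 867 and 1002 with fructose, and 1368 and 1377, 948 and 766, and 896 and 824 in MED13-LKO mice. The MED13-LKO mice showed the wider gap between fasted and fed. Fasted and fed control mice overlapped, and *Thrb* was called for neither sugar in control mice. The pooled fall was 0.40 on the log2 scale (standard error 0.07, limma adjusted p = 0.00319). *Nr2c2*, for the orphan receptor TR4, had 487 and 375, 265 and 303, and 385 and 355 in control mice, and 562 and 478, 307 and 356, and 297 and 241 in MED13-LKO mice. Fasted and fed mice overlapped for *Nr2c2*, which fell by 0.60 (standard error 0.10, limma adjusted p = 0.0028), while *Mrps25* had a log2 fold change of 0.02 (limma adjusted p = 0.923).

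The COUP-TF related orphan receptors *Nr2f2* and *Nr2f6*, often repressors at receptor sites, rose. *Nr2f6* had 1324 and 1359.6 in fasted control mice, 1464 and 1585 with sucrose, and 1598 and 1608 with fructose, and 1161 and 1340, 1549 and 1451, and 1444 and 1559 in MED13-LKO mice. Fed mice did not overlap fasted mice, but the rise was small at 0.24 (standard error 0.055, limma adjusted p = 0.0127), and it was not called without fasted MED13-LKO mouse 1 (adjusted p = 0.0573 in limma). *Ocel1*, with which it shares sequence, rose by 0.23 (limma adjusted p = 0.0353), and its part in the value of *Nr2f6* was not tested. *Nr2f2* had 302 and 285, 420 and 366, and 335 and 437 in control mice and 375 and 358, 439 and 391, and 454 and 527 in MED13-LKO mice. Fasted and fed mice overlapped for *Nr2f2* across genotypes but not within either genotype. Its rise of 0.35 (standard error 0.089, limma adjusted p = 0.0208) was not called without any 1 of the 4 fasted mice, where the highest adjusted p was 0.0803.

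Of the 16 genes not called for feeding, 8 were called in another comparison and are described with it. *Prox1*, *Onecut2* and *Nfib*, which encode liver development factors, ranged over the 12 mice from 1440.3 to 3505, 1601 to 2172 and 959.9 to 1419 normalized counts. They had pooled log2 fold changes of -0.19, 0.05 and -0.17 (limma adjusted p = 0.561, 0.591 and 0.134). The glucocorticoid receptor gene *Nr3c1* ranged from 2227 to 3055 normalized counts over the 12 mice, with a log2 fold change of 0.02 (standard error 0.077, limma adjusted p = 0.897). *Thra* (thyroid hormone receptor α) ranged from 129 to 194, *Rarb* from 12.5 to 51.7, and *Nr5a2* (LRH-1, a regulator of bile acid synthesis) from 1006 to 1803. None of these was called, and their pooled log2 fold changes were 0.29, 0.72 and -0.16 (limma adjusted p = 0.0756, 0.0855 and 0.379). *Nr4a1* had 24.9 and 37.4 in fasted control mice, 0 and 21.7 with sucrose, and 11.01 and 21.4 with fructose, and 0 and 0, 18.7 and 21.1, and 15.8 and 0 in MED13-LKO mice, and no fold is given because of the values at 0.

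By sugar and genotype, the fasted mice of a genotype serve as the baseline of both sugars, so these counts are not independent. With sucrose in control mice 9 of the 34 genes were called, against 8.57% of all genes, namely *Foxa1*, *Foxa2*, *Cebpa* and *Cebpg* higher and *Cebpb*, *Cebpd*, *Klf9*, *Klf15* and *Nr1i2* lower. With fructose in control mice 10 were called, against 5.6% of all genes, and these were *Foxa1*, *Foxa2*, *Foxa3*, *Cebpa* and *Cebpg* higher and *Cebpd*, *Klf9*, *Klf15*, *Rora* and *Nr1i2* lower. When only the fasted and fructose-fed control libraries were fitted, 0 of these 10 were called, against 0.218% of all genes. *Cebpb* was not called for fructose in control mice, where mouse 1 had 1194 and mouse 2 2490.1. With sucrose in MED13-LKO mice 11 were called, against 5.71% of all genes, *Foxa2* and *Cebpa* higher and *Cebpb*, *Cebpd*, *Nfia*, *Klf9*, *Klf15*, *Rora*, *Rxrb*, *Thrb* and *Nr1i2* lower. With fructose in MED13-LKO mice 9 were called, against 6.53% of all genes, *Cebpa* higher and *Cebpb*, *Cebpd*, *Klf9*, *Klf15*, *Rora*, *Thrb*, *Nr1i2* and *Nr2c2* lower. Of these calls by sugar, *Klf9*, *Cebpd*, *Klf15*, *Cebpa*, *Cebpg* and *Foxa2* for sucrose in control mice, *Cebpa* for fructose in control mice, *Cebpd*, *Klf9* and *Klf15* for sucrose in MED13-LKO mice, and *Cebpd* and *Klf9* for fructose in MED13-LKO mice were kept whichever library was left out of the fit of all groups. The other calls for sucrose in control mice were lost without any 1 of the 4 fasted or sucrose-fed control mice (highest adjusted p = 0.21, *Nr1i2*), and without fasted control mouse 2 only *Cebpa* of the 34 was still called for fructose in control mice. In MED13-LKO mice the other calls were lost without at least 1 of the fasted or fed MED13-LKO mice, with a highest limma adjusted p of 0.261 for sucrose and 0.131 for fructose, both for *Nr1i2*. Between fructose and sucrose 0 of 34 were called, against 0.0404% of all genes (lowest adjusted p among the members 0.366, limma). At an unadjusted limma p under 0.05, 4 members (*Foxa2*, *Nfib*, *Rara* and *Ppard*, 11.8%) and 9.48% of all genes differed between the sugars.

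Genes tied to these factors, from lists of their known targets and partners, are given as counts beside the 21.8% background. That share is for the pooled comparison. Where a count is for control mice alone the background is 10.6% of all genes, and for MED13-LKO mice alone 9.37%. Up to 3 of the largest changes are named for each list. Listed genes can also answer to factors other than the one named, and the activity of the factors was not measured. Of 16 tested target genes of the glucocorticoid receptor and C/EBP factors, 14 fell and 0 rose, with a median log2 fold change of -1.49 against -0.0063 over all genes. *Igfbp1* (an insulin-like growth factor binding protein), *Mt2* (metallothionein) and *Angptl4* (a lipase inhibitor) had log2 fold changes of -4.43, -3.99 and -3.20, all called (limma adjusted p = 7.42e-05, 2.09e-05 and 0.00012). Of 10 tested thyroid hormone targets, 7 rose and 0 fell, with a median of 0.91, led by *Thrsp* (a lipogenic factor, 1.70), *Slc16a6* (a ketone transporter, 1.63) and *Fgf21* (a liver hormone, 1.60). In control mice alone 7 rose, with a median of 1.13, and in MED13-LKO mice alone 4 rose, with a median of 0.70. *Fgf21* had log2 fold changes of 3.14 in control and 0.07 in MED13-LKO mice, from a lowest control value of 1.13 normalized counts, and the difference between them was not called (limma adjusted p = 0.281). Of 15 tested CAR and PXR targets, 5 fell and 0 rose, with a median of -0.28, led by *Cyp2b10* (-1.53), *Por* (-0.89) and *Gstm3* (-0.53), which serve drug metabolism. In control mice alone 5 of the 15 fell, with a median of -0.46, and in MED13-LKO mice alone 1 fell, with a median of 0.03. *Gstm3* had log2 fold changes of -0.97 in control and -0.10 in MED13-LKO mice, and the difference between them was not called (limma adjusted p = 0.362). Of 19 tested HNF4A targets, 3 rose and 3 fell, with a median of -0.09, and *F9* (a clotting factor) had a log2 fold change of -0.25. Of 8 retinoid targets 1 rose (*Tgm2*, 0.59) and 1 fell (*Ccn2*, -1.58), with a median of 0.10, and of 10 PPARγ targets 0 were called, with a median of 0.11 (limma, no list tested as a set).

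Among 22 tested coregulators of nuclear receptors, 2 rose and 9 fell, with a median log2 fold change of -0.12. *Ppargc1a* and *Ppargc1b*, coactivators of fasting and mitochondrial genes, fell by 1.10 and 0.91, and *Tbl1xr1*, a corepressor component, by 0.64 (limma adjusted p = 0.000537, 0.0208 and 0.0399). Among 17 other nuclear receptors 4 rose and 4 fell, with a median of -0.05, among them *Nr0b2* (SHP, -1.13) and *Esrrg* (-1.09). Among 30 other liver identity factors 10 rose and 7 fell, with a median of 0.05, led by *Onecut1* (HNF6, 2.03), *Foxo1* (-1.35) and *Klf10* (1.21). Of 14 early response genes 2 rose and 6 fell (*Egr1* -1.64, *Atf3* 1.37, *Myc* 1.31), with a median of -0.33. Of 17 clock genes 3 rose and 7 fell (*Ciart* -1.21, *Per1* -1.18, *Bhlhe40* 1.18), with a median of -0.11, and of 20 acute phase genes 1 rose and 4 fell, with a median of -0.12. The clock genes moved with feeding in the same mice as the members, and their part in the members' changes was not tested.

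The next comparison asked which of the 34 genes differed between the genotypes. *Esr1*, *Rara*, *Esrra*, *Nfia* and *Ppard* were higher in the libraries labelled MED13-LKO, and *Nr1i3*, *Pparg*, *Cebpb*, *Foxa2*, *Foxa3*, *Klf15*, *Rxra*, *Nr2c1* and *Cebpa* were lower. Averaged over the 3 diets 14 of 34 were called, against 25.3% of all genes. The 5 higher compare with 12.1% of all genes called higher, and the 9 lower with 13.2% called lower. Only *Esr1* and *Esrra*, 2 of 34, had 6 MED13-LKO mice that did not overlap the 6 control mice, against 8.85% of all genes. The median absolute log2 fold change was 0.29 over the 34 genes and 0.18 over all genes.

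*Esr1* encodes estrogen receptor α. It had 306 and 279 normalized counts in fasted control mice, 385 and 329 with sucrose, and 335 and 288 with fructose, against 679 and 453, 599 and 713, and 583 and 814 in MED13-LKO mice. Every MED13-LKO mouse was above every control mouse, and the log2 fold change over the diets was 0.98 (standard error 0.12, limma adjusted p = 0.000383), the largest rise among the 34. It was 0.92 when fasted, 0.87 with sucrose and 1.15 with fructose, each called (limma adjusted p = 0.0257, 0.0394 and 0.011). The call when fasted was lost without fasted control mouse 1 or 2 or fasted MED13-LKO mouse 1, that with sucrose without any 1 of the fasted control or sucrose-fed mice, and that with fructose without fructose-fed MED13-LKO mouse 2 (highest adjusted p = 0.146, 0.207 and 0.0879, limma). *Esrra*, for the estrogen-related receptor α that drives mitochondrial genes and binds no estrogen, had 729 and 739, 738 and 654, and 780 and 655 in control mice, and 868 and 826, 869 and 969, and 957 and 1097 in MED13-LKO mice. These values did not overlap between genotypes either, with a log2 fold change of 0.38 (standard error 0.067, limma adjusted p = 0.00295).

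*Rara* (retinoic acid receptor α) had 196 and 190.4, 226 and 197, and 218 and 282 in fasted, sucrose-fed and fructose-fed control mice, and 271 and 322, 258 and 289, and 329.8 and 356 in MED13-LKO mice. Within each diet both MED13-LKO mice were above both control mice, and the log2 fold change was 0.48 (standard error 0.089, limma adjusted p = 0.00369). *Nfia*, for a nuclear factor I protein, had 434 and 393, 647 and 449, and 396 and 418 in control mice and 797 and 732, 503 and 477, and 519 and 528 in MED13-LKO mice. The fasted MED13-LKO mice were highest, and sucrose-fed control mouse 1 exceeded the fed MED13-LKO mice. The log2 fold change of *Nfia* was 0.37 over the diets and 0.89 when fasted (limma adjusted p = 0.012 and 0.00693). *Ppard* (PPARδ, a fatty acid sensor) had 112 and 100, 124 and 115, and 77.8 and 87.8 in control mice, and 148 and 147, 127 and 139, and 122 and 108 in MED13-LKO mice. It was higher in both MED13-LKO mice than in both control mice of each diet, by 0.37 (standard error 0.09, limma adjusted p = 0.0149).

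*Nr1i3* encodes CAR, which induces drug-metabolizing enzymes. It had 5142 and 6191 normalized counts in fasted control mice, 4164 and 5756 with sucrose, and 3321 and 7077 with fructose, against 3538 and 3623, 2321 and 2856, and 2806 and 1794 in MED13-LKO mice. Within each diet both MED13-LKO mice were below both control mice, with a log2 fold change of -0.90 (standard error 0.19, limma adjusted p = 0.00642), or 1.86-fold lower. *Tomm40l*, which shares sequence with it, had a log2 fold change of 0.16 (limma adjusted p = 0.488). *Pparg*, for PPARγ, a driver of lipid storage that is low in normal liver, had 214 and 200, 239 and 179.6, and 149 and 211 in control mice, and 119.7 and 114, 124 and 139, and 165 and 118 in MED13-LKO mice. The genotypes overlapped only through fructose-fed mice, and the log2 fold change was -0.61 (standard error 0.13, limma adjusted p = 0.00707). *Rxra*, with the values given above, was lower by a log2 fold change of -0.33 (standard error 0.056, limma adjusted p = 0.00225). *Nr2c1*, for the orphan receptor TR2, had 337 and 319, 358 and 292, and 366 and 270.4 in control mice and 267 and 283, 254 and 287, and 223 and 245 in MED13-LKO mice. Its log2 fold change of -0.31 (limma adjusted p = 0.034) was lost without any 1 of 9 of the 12 mice, all but sucrose-fed control 2, fructose-fed control 2 and sucrose-fed MED13-LKO 2, with a highest limma adjusted p of 0.0912.

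**Figure D4:**
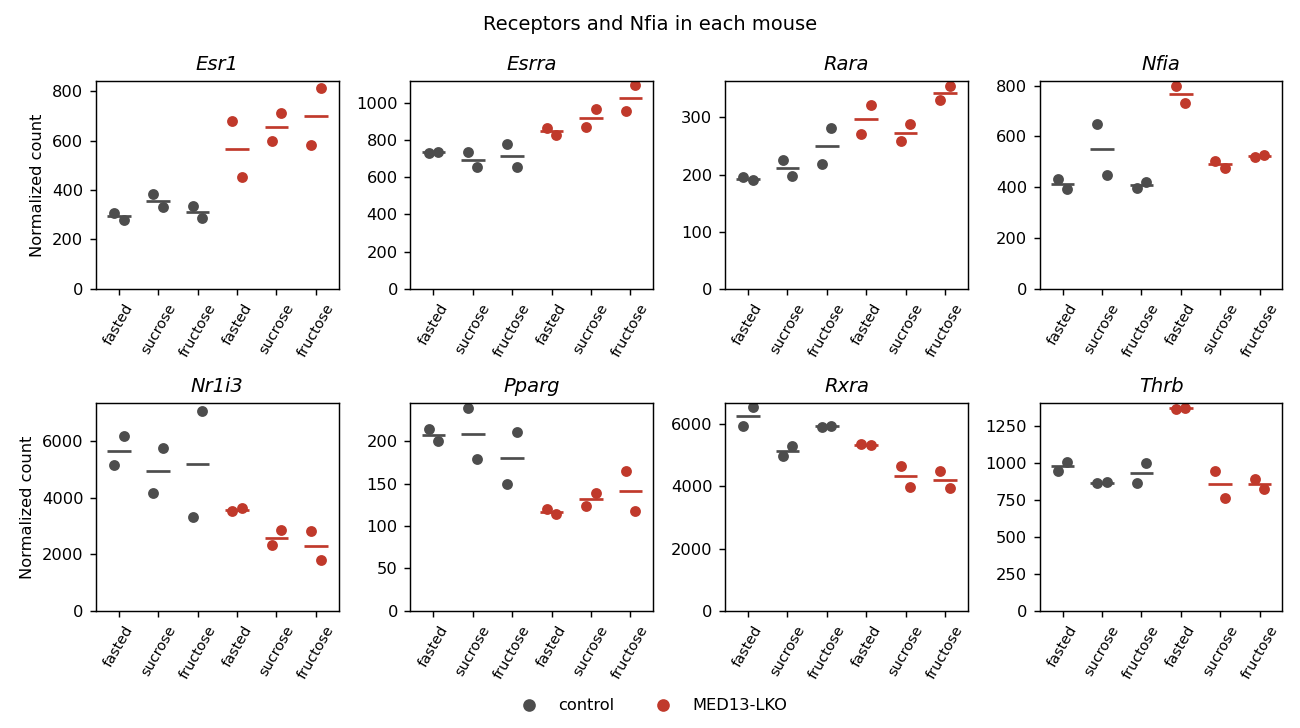
Normalized counts in each of 12 mice (points, with group means as lines) for *Esr1*, *Esrra*, *Rara*, *Nfia*, *Nr1i3*, *Pparg*, *Rxra* and *Thrb*, control mice in grey and MED13-LKO mice in red, each axis starting at 0. *Esr1* and *Esrra* separate all 6 MED13-LKO from all 6 control mice, and *Thrb* is highest in the fasted MED13-LKO mice at 1368 and 1377.

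Of the identity factors, *Foxa3* was lower over the diets by 0.45 on the log2 scale, *Foxa2* by 0.49, *Cebpb* by 0.57, *Klf15* by 0.38 and *Cebpa* by 0.21 (limma adjusted p = 0.00417, 0.0256, 0.0282, 0.0415 and 0.0248). *Tmem189*, which shares sequence with *Cebpb*, was higher by 0.37 (limma adjusted p = 0.017). *Foxa3* kept its call whichever library was left out. The other 4 lost theirs without any 1 of 6 mice for *Foxa2* (fasted control 1, sucrose-fed control 1, and fasted 1, fasted 2, sucrose-fed 2 and fructose-fed 2 of MED13-LKO), 8 for *Cebpb* (all but fasted control 1, both fructose-fed controls and fasted MED13-LKO 2), 9 for *Klf15* (all but sucrose-fed control 1 and both fructose-fed controls) and 5 for *Cebpa* (fasted control 1, sucrose-fed control 2 and fasted 1, sucrose-fed 2 and fructose-fed 2 of MED13-LKO), with highest limma adjusted p of 0.071, 0.0754, 0.107 and 0.0724. *Hnf4a* had a log2 fold change between genotypes of -0.14 (standard error 0.056, limma adjusted p = 0.094) and was not called.

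Within single diets fewer genes passed. In fasted mice 6 were called, against 8.98% of all genes: *Cebpg* (0.43), *Nfia* (0.89), *Rara* (0.61), *Thrb* (0.49) and *Esr1* (0.92) higher and *Pparg* (-0.82) lower in MED13-LKO mice, as log2 fold changes (limma adjusted p = 0.0155, 0.00693, 0.0368, 0.0282, 0.0257 and 0.0472). With sucrose 1 was called, *Esr1*, against 6.03% of all genes. With fructose 6 were called, against 7.69% of all genes. *Foxa2*, *Foxa3*, *Klf9* and *Rxra* were lower in the fructose-fed MED13-LKO mice, by log2 fold changes of -1.17, -0.93, -0.68 and -0.50, while *Esr1* and *Esrra* were higher by 1.15 and 0.52 (limma adjusted p = 0.0161, 0.0051, 0.022, 0.0136, 0.011 and 0.0248). For *Foxa2* and *Foxa3* both fructose-fed control mice were above both fructose-fed MED13-LKO mice. Of the calls in single diets only that of *Foxa3* with fructose was kept whichever library was left out. In fasted mice all 6 were lost without fasted control mouse 2 (highest adjusted p over all libraries left out 0.207, *Rara*). With fructose, the other 5 were lost without fructose-fed MED13-LKO mouse 2, *Foxa2* also without mouse 1 of either genotype, and *Klf9* and *Esrra* also without control mouse 2 (highest adjusted p = 0.162, *Esrra*). When only the 4 fructose-fed libraries were fitted 0 of the 6 were called, against 1.32% of all genes.

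The target and marker lists differed between genotypes as follows, beside the 25.3% background. Of 19 tested HNF4A targets, 2 were higher and 12 lower in the libraries labelled MED13-LKO, with a median log2 fold change of -0.38 against 0.0058 over all genes, led by *Cyp8b1* (bile acid synthesis, -1.41), *Apoc3* (-1.08) and *Apom* (-0.998), which encode apolipoproteins. Of 15 tested CAR and PXR targets, 3 were higher and 8 lower, with a median of -0.58. The 3 with the largest change, *Cyp2c55* (1.88), *Abcb1a* (1.59) and *Gadd45b* (1.34), were the 3 that were higher, opposite to *Nr1i3* itself. Of 10 PPARγ targets 4 were higher and 1 lower, with a median of 0.29, led by *Cd36* (fatty acid uptake, 2.62), *Fitm1* (lipid droplets, -0.98) and *Lpl* (lipoprotein lipase, 0.76), beside the lower *Pparg*. Of 10 thyroid hormone targets 1 was higher and 4 lower (*Fgf21* 1.56, *Cyp7a1* -1.06, *Me1* -0.99), with a median of -0.38, and of 16 glucocorticoid receptor and C/EBP targets 3 were higher and 3 lower (*Lcn2* 1.37, *Igfbp1* -1.32, *Mt2* 0.79), with a median of 0.06. Of 8 retinoid targets 1 was higher (*Tgm2*, 0.32) and 0 lower, with a median of -0.14 (limma).

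Of 17 other nuclear receptors 2 were higher and 3 lower (*Esrrb* 1.08, *Rxrg* 0.96, *Nr1d1* -0.80), with a median of 0.08. Of 30 other liver identity factors 4 were higher and 4 lower (*Cux2* 1.31, *Foxq1* -0.86, *Dbp* -0.69), with a median of 0.04, and of 22 coregulators 3 were higher and 2 lower (*Ppargc1a* 0.47, *Ncoa4* -0.35, *Ncoa2* 0.34), with a median of 0.05. Of 14 early response genes 2 were higher and 2 lower, of 20 acute phase genes 3 and 9, and of 17 clock genes 1 and 6, with medians of 0.17, -0.17 and -0.17.

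Genes known to differ between male and female mouse liver also differed between the genotypes. Of 16 tested female-biased liver genes 10 were higher and 0 lower in the libraries labelled MED13-LKO, with a median log2 fold change of 0.86, led by *Cyp2a4* (7.78), *Cyp2c40* (5.42) and *Slc22a26* (3.93). Of 24 male-biased liver genes 0 were higher and 16 lower, with a median of -1.32, led by *Mup7* (-7.27), *Selenbp2* (-5.67) and *Hsd3b5* (-5.24). The Y-linked *Ddx3y* was present in all 12 libraries, so that all 12 mice carried a Y chromosome. It had 1450 to 1772 normalized counts in control mice and 1679 to 1865 in MED13-LKO mice (log2 fold change 0.12, limma adjusted p = 0.161). Of the other Y-linked genes, *Uty* was higher by 0.44 (limma adjusted p = 0.00165), *Eif2s3y* was lower with a log2 fold change of -0.25 (limma adjusted p = 0.0295), and *Kdm5d* had 0.37 (limma adjusted p = 0.144). The part of these lists in the difference of *Esr1* was not tested.

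Markers of other liver cells also moved with genotype. Of 5 sinusoidal endothelium markers 4 were higher and 0 lower, with a summed level of 3426 to 4130 normalized counts in control mice and 4121 to 5449 in MED13-LKO mice. Of 5 Kupffer cell markers 2 were higher and 0 lower, at 2904 to 4036 summed against 3898 to 5210. Of 5 stellate markers 0 were higher and 2 lower, at 4631 to 5870 against 4343 to 5205. Of 6 hepatocyte markers 0 were higher and 4 lower, at 2344900 to 3082410 against 1808070 to 2209270. Of 4 tested bile duct markers 0 were higher and 1 lower, at 669 to 878 against 534 to 851, with *Cftr* listed at 0 in at least 1 library of each genotype, and the 1 tested lymphocyte marker, *Ptprc*, was higher, with *Nkg7* listed at 0 in at least 1 library of each genotype and *Cd79a* in controls alone. With feeding, 0 to 1 marker was called in each of the 5 lists of other cell types, and all called were lower. The part of these cell types in the members' genotype differences was not tested.

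The last comparison asked whether feeding acted differently in the genotypes. No member passed the test of the difference between the feeding responses (0 of 34, against 0.0404% of all genes, limma), with a lowest adjusted p of 0.131, for *Cebpg*. At an unadjusted limma p under 0.05, 9 members (26.5%) and 9.49% of all genes differed: *Cebpg* (-0.62), *Foxa1* (-0.75), *Foxa2* (-0.99), *Foxa3* (-0.56), *Cebpa* (-0.31), *Nfia* (-0.77), *Klf9* (-0.56) and *Thrb* (-0.56), as differences of log2 fold changes, and *Nr4a1*, for which no size is given. A negative value means a smaller rise or a larger fall in MED13-LKO mice. The responses themselves lie side by side as follows. *Cebpg* rose by 0.62 with sucrose and 0.61 with fructose in control mice and had log2 fold changes of 0.00034 and -0.01 in MED13-LKO mice. *Foxa2* rose by 1.80 and 1.67 in control mice and by 1.16 with sucrose in MED13-LKO mice, with 0.32 for fructose, which was not called (limma adjusted p = 0.466). *Foxa1* had 0.90 and 0.86 in control mice against 0.32 and -0.05 in MED13-LKO mice. *Thrb* had -0.17 and -0.07 in control mice against -0.69 and -0.68 in MED13-LKO mice.

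Taken for each sugar on its own, a choice made after the data were seen, 0 of 34 differed between genotypes for sucrose (0.146% of all genes) and 0 of 34 for fructose (0.0243%). At an unadjusted limma p under 0.05 these were 4 members (11.8%) for sucrose, against 8.53% of all genes, and 9 members (26.5%) for fructose, against 9.46%. With 1 library left out, members were called for fructose only without fructose-fed control mouse 2, namely *Foxa2* (-1.72), *Foxa3* (-1.10) and *Nr5a2* (0.91). For sucrose a member was called only without sucrose-fed control mouse 2, namely *Nfia* (-1.29). No member was called for either sugar with any other library left out, mouse 1 of the same groups included. Each of these fits has a single mouse in 1 group, which is assumed to vary like the other groups, and the pair of fructose-fed control mice was the one that stood farthest apart.

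**Figure D5:**
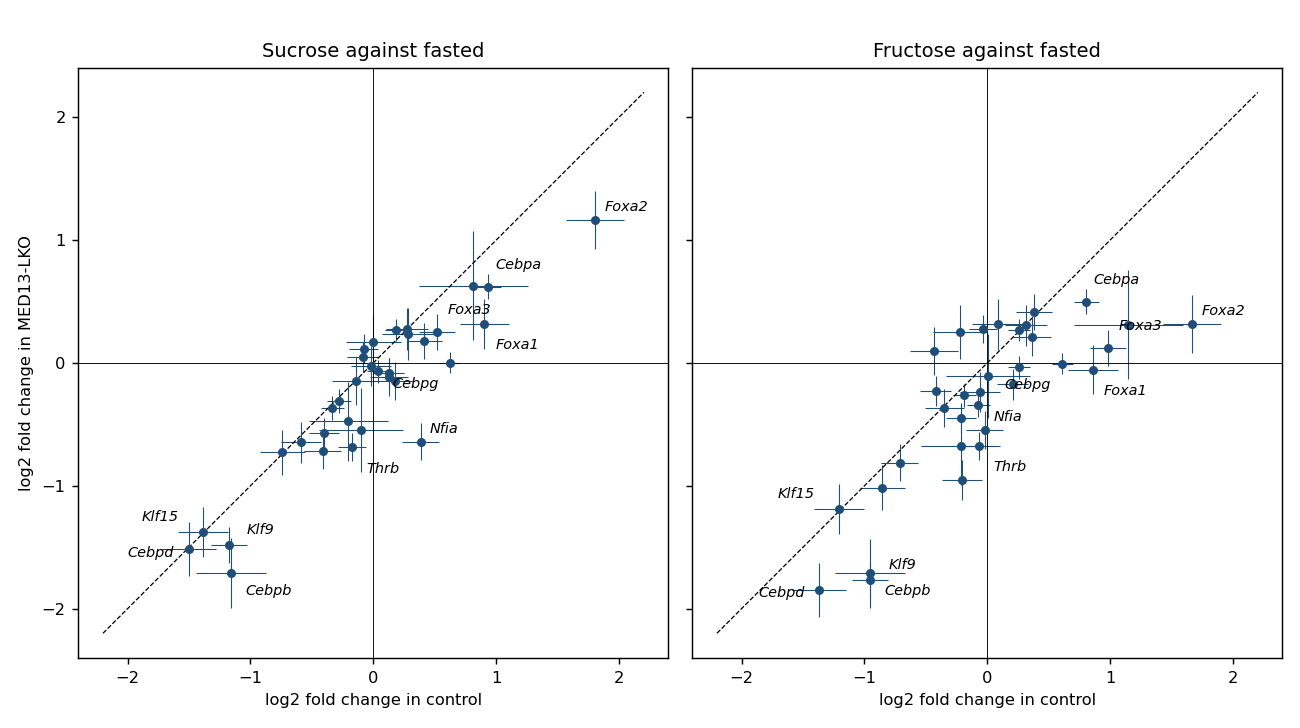
Log2 fold changes from the fasted state in control mice (horizontal) and in MED13-LKO mice (vertical) for 33 genes, with sucrose on the left and fructose on the right; bars are standard errors and the dashed line marks equal responses. Both panels use the same fasted mice. With fructose *Foxa1*, *Foxa2* and *Foxa3* lie below the line, at -0.05, 0.32 and 0.12 in MED13-LKO mice against 0.86, 1.67 and 0.98 in control mice, and no member passed the test of the difference.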

How the data were processed

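Liver RNA-seq of 12 mice was read from a table of normalized counts, a signal that the authors deposited per gene. Per the labels and methods the authors trimmed reads with Trim Galore 0.6.5, quantified transcripts with kallisto 0.46.0 on mm10 and normalized with DESeq2 1.24.0. Read totals were not recovered: whole multiples of a step per library (tolerance 0.05) made up 51.95% to 58.93% of low values over all genes, so that no count test was run and depth is known only as an implied 16.09 to 24.23 M reads. The step was chosen to give the largest share in genes with a single annotated transcript, where it was 87.33% to 98.99%. Each value was taken as log2(normalized count + 1), which understates changes of low genes, and 12366 genes with a mean of at least 10 were fitted with limma 3.58.1 (R 4.3.3) in a model of 6 groups over all 12 libraries, with a mean-variance trend and Benjamini-Hochberg adjustment over all genes tested. The fit was tested on simulated data. The members, the gene lists and the comparisons were chosen with earlier results of these data known. All members are named, and for each list the 3 genes with the largest called change, of which some are not reported here. Gene positions and lengths are from GENCODE M21 (GRCm38) and promoter windows from RefSeq (GRCm38.p6). Alternatives were other pseudocounts, no filter, equal 75th percentiles, a replicate block, fits of only the groups compared, and leaving out each library. The authors' own comparisons were not used.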

Additional observations from a re-analysis of the deposited data

Results flagged for a closer look

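For 5 genes, every fed MED13-LKO mouse moved the opposite way to every fed control mouse under the same sugar, each relative to the fasted mice of its genotype. The share of all genes tested with this pattern was not counted, so whether these genes exceed it is not known. With sucrose these were *Nfia* (difference of the log2 fold changes, MED13-LKO minus control, -1.02), *Ppard* (-0.32) and *Nr4a1* (a fitted 7.11, which the pseudocount of 1 sets because both fasted MED13-LKO mice are listed at 0, and which is no measure of size). With fructose they were *Nr3c1* (-0.38) and *Nr5a2* (0.53). The difference itself was tested with limma, and none was called: the BH-adjusted p was 0.193 for *Nfia*, 0.744 for *Ppard*, 0.39 for *Nr4a1*, 0.537 for *Nr3c1* and 0.592 for *Nr5a2*. The fasted mice are shared by both sugars.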

How the results depend on the processing

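Of the 84 called values of the members, 83 kept their call with a pseudocount of 0.1, 84 with 10, 82 with no filter, 83 with equal 75th percentiles and 81 with the replicate block, and 0 changed direction. When only the groups compared were fitted, 32 of 52 kept their call. The members called were then 0 for fructose in control mice (0.218% of all genes), 3 for genotype with sucrose (4.54%) and 0 for genotype with fructose (1.32%). With the replicate block 0 members were called for genotype with sucrose (5.21% of all genes). The block uses the numbers in the sample titles. The deposited columns number the fasted mice 1 and 2 but the fed mice 2 and 3, so the sources do not give 1 numbering that pairs fasted with fed mice. By title number, 0 of 15 pairs of groups had a correlation of same-numbered mice over 0.1 (-0.142 to 0.0782). With each library left out in turn, 36 of the 84 calls were never lost. Members called, with the share of all genes called, ranged from 14 to 20 (12.6% to 23.9%) for feeding, 6 to 12 (2.66% to 10.6%) and 1 to 12 (1.04% to 7.89%) for sucrose and fructose in control mice, 4 to 12 (1.16% to 7.38%) and 2 to 10 (0.526% to 8.86%) in MED13-LKO mice, 9 to 17 (18.8% to 26.3%) for genotype over the diets, and 0 to 7 (3.09% to 11.8%), 0 to 4 (1.2% to 7.98%) and 1 to 9 (2.65% to 8.54%) for genotype when fasted, with sucrose and with fructose. For fructose against sucrose and for the difference of the feeding responses it was 0 throughout. A group left with 1 mouse is assumed to vary like the others. Groups of 2 mice limit every comparison. Fits with a library left out hold fewer mice, and the cause of these shifts was not tested.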
